A study of Mus musculus with 9 samples.

Results

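The G1 cyclins, cyclin-dependent kinases (CDKs) and CDK inhibitors were examined in cortical RNA of E16.5 mouse embryos, together with *Rb1*. The 10 genes were chosen by name as regulators of cell cycle length and exit, and they take 11 of the 14670 rows of the table, because *Rb1* is listed in 2 rows. The 9 libraries came from 3 genotypes with 3 libraries each, labelled Control +/+, Fzd3 -/- mutant and Celsr3 -/- mutant. *Fzd3* encodes a Wnt receptor of the Frizzled family and *Celsr3* an atypical cadherin, and both act in planar cell polarity and axon guidance. The methods place both mutants on a mixed C57Bl/6 and CD1 background and describe controls as wild-type or heterozygous littermates, whereas the sample labels read +/+ for every control. The methods give 3 cortical samples of each genotype and a minimum of 3 animals for animal experiments in general, but do not say outright that each library came from 1 embryo, so p-values measure only the spread between these samples.

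Cells in G1 decide whether to divide again or to leave the cycle. D-type cyclins bind CDK4 and CDK6, and these kinases phosphorylate the retinoblastoma protein, which releases E2F transcription factors and allows entry into S phase. INK4 inhibitors bind CDK4 and CDK6 directly, whereas Cip/Kip inhibitors bind cyclin and CDK complexes. In the developing cortex, the length of G1 and the levels of these inhibitors are known to bear on whether progenitors divide again or produce neurons.

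Levels are given as CPM (reads of a gene scaled to nearly the same total in each library). If each step between CPM values is 1 read, they correspond to 39857305 to 69600589 reads per library on the listed genes, and 3 reads to between 0.0427 and 0.0752 CPM. The least abundant row examined, the minor row of *Rb1*, rested on 113 to 242 reads, and each of the 10 genes on at least 219 reads in each library. A library stood apart in its tissue content, as meninges markers summed to 174.8 CPM in *Celsr3* mutant replicate 4 and to no more than 21.04 CPM elsewhere, and results without it are given with the marker lists. Differences are on the scale of log2(CPM + 0.5), which understates changes of low values, and were tested with limma in 1 fit of all 9 libraries, with p-values adjusted by the Benjamini-Hochberg method over 14670 rows and a threshold of 0.05.

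The targeted genes show how well the genotypes separate. For *Celsr3*, levels were 196, 243 and 214 CPM in controls, and 122, 139 and 118 CPM in *Celsr3* mutants, with no overlap. *Fzd3* was at 58.0, 67.7 and 46.9 CPM in controls and at 46.5, 39.8 and 59.6 CPM in *Fzd3* mutants. These ranges overlapped, so *Fzd3* mRNA did not separate the *Fzd3* mutant libraries from controls. The paper describes exon 3 as deleted in the mutant allele, and the table has a single value for the whole gene.

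In *Fzd3* mutants, 5 of the 10 genes were lower than in controls and 0 were higher. The lower genes were *Ccnd1*, *Ccnd2*, *Cdk4*, *Cdk6* and *Cdkn2c*, which include 2 of the 3 D cyclins, both G1 kinases and 1 INK4 inhibitor. Of all rows, 14.8% were lower and 15% higher in this comparison. The median log2 difference was -0.25 over the 10 genes and -0.000559 over all rows. In *Celsr3* mutants, 0 of the 10 genes passed the threshold against controls by limma, 0 had an unadjusted p below 0.05, and 0 passed in each of the 21 fits that differ from it. Of all rows, 0.177% were lower and 0.130% higher there. The median log2 difference was 0.01 over the 10 genes and -0.00222 over all rows. Compared directly, *Fzd3* mutants were lower than *Celsr3* mutants in 5 of the 10 genes (*Ccnd1*, *Cdk4*, *Cdk6*, *Cdkn1b* and *Cdkn2c*) and higher in 0. Of all rows, 14.3% were lower and 15.3% higher in that comparison. Both comparisons with *Fzd3* mutants use the same *Fzd3* mutant libraries, and both comparisons with controls use the same controls.

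The 3 libraries of *Fzd3* mutants lay entirely below the 3 controls for the same 5 genes that passed the threshold. In either direction, 5 of 10 genes did not overlap, against 43.8% of all rows, which is close. In the lower direction it was the same 5 of 10, against 22.2% of all rows, and whether the list exceeds that share was not tested. Chance alone gives 10% in either direction for 3 libraries against 3. No gene of the 10 separated *Celsr3* mutants from controls, against 10.4% of all rows. Between the mutants, 6 of the 10 genes did not overlap, against 44.9% of all rows, and all 6 were lower in *Fzd3* mutants, against 22.6% of all rows. In bulk tissue, fewer cells of a type and less RNA per cell cannot be told apart.

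**Figure D1:**
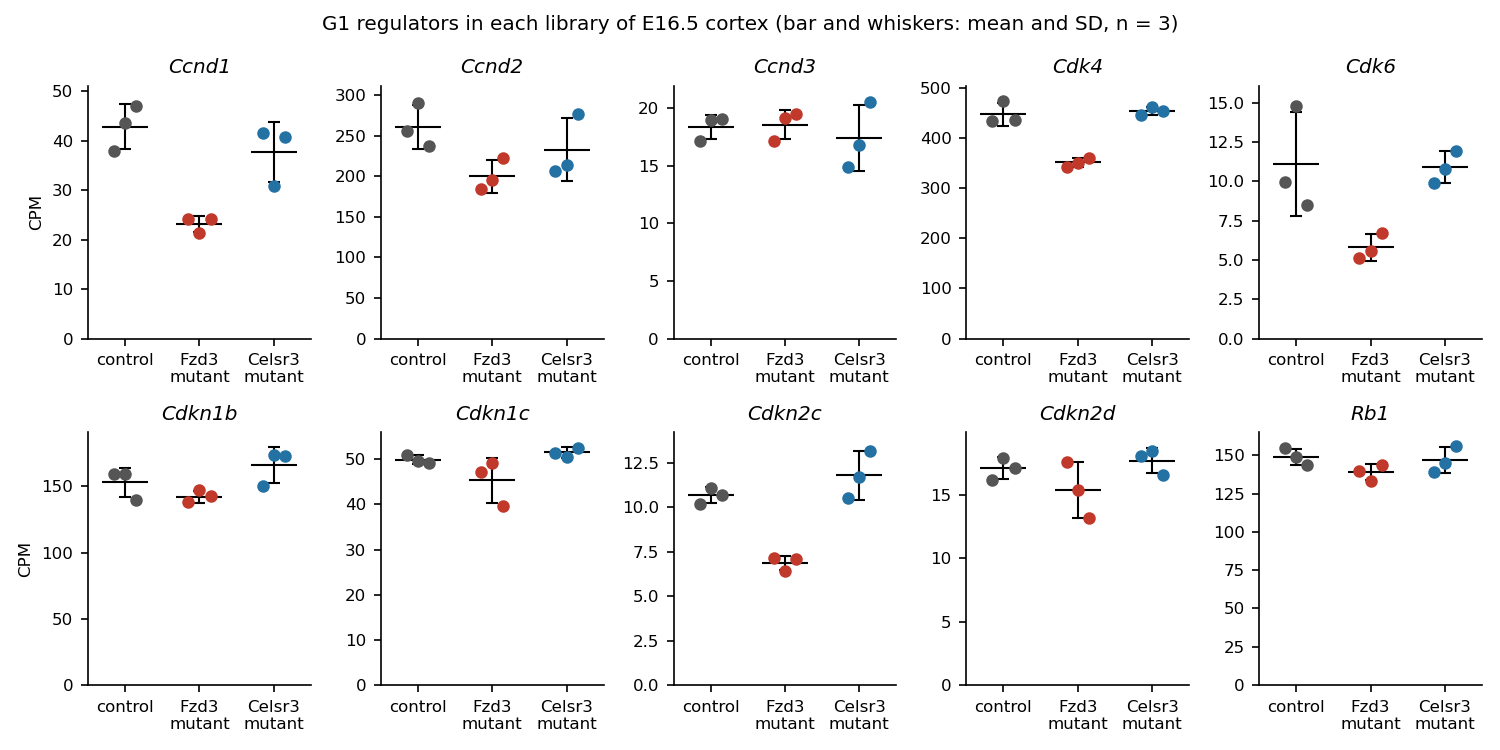
CPM of the 10 genes in each library, with 1 point per library and the mean and SD of 3 libraries per genotype, on axes that start at 0. All 3 *Fzd3* mutant libraries lie below all 3 controls for *Ccnd1*, *Ccnd2*, *Cdk4*, *Cdk6* and *Cdkn2c*, whereas *Ccnd3* lies between 14.9 and 20.6 CPM in every genotype.

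The D cyclins are the regulatory subunits that link growth signals to the G1 kinases. *Ccnd1*, which encodes cyclin D1 (chromosome 7 of GRCm38, 144929931 to 144939925, minus strand), was at 38, 43.5 and 47.0 CPM in controls. It was at 24.2, 21.4 and 24.1 CPM in *Fzd3* mutants and at 41.6, 30.8 and 40.7 CPM in *Celsr3* mutants. Every *Fzd3* mutant library was below every other library, and the *Celsr3* mutant and control libraries overlapped. The log2 difference from controls was -0.87 in *Fzd3* mutants (SE 0.113, limma adjusted p = 0.00032), and the mean CPM fell by 45.8%. In *Celsr3* mutants it was -0.19, with a 95% confidence interval from -0.44 to 0.06. Between the mutants it was -0.68 (SE 0.113, limma adjusted p = 0.00151), which did not pass in the ordinary per-gene test (adjusted p = 0.0731, range 0.000504 to 0.0731).

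*Ccnd2*, which encodes cyclin D2, known in the cortex for its mRNA in the basal processes of radial glia, is read from the minus strand of chromosome 6 (127125162 to 127152193). It was at 256, 291 and 237 CPM in controls and at 184, 195 and 223 CPM in *Fzd3* mutants. The highest *Fzd3* mutant library was below the lowest control, with a narrow gap. The log2 difference was -0.38 (SE 0.112, limma adjusted p = 0.0251). This call was lost in 7 of 21 alternative fits, whose adjusted p ranged from 0.00649 to 0.122 over all 21. It was lost without control replicate 1 (adjusted p = 0.0572), control replicate 2 (0.0958), *Fzd3* mutant replicate 1 (0.1) or *Fzd3* mutant replicate 2 (0.0769). In *Celsr3* mutants *Ccnd2* was at 207, 214 and 277 CPM, where replicate 4 was inside the control range and the others below it. The log2 difference from controls was -0.18, with an interval from -0.42 to 0.07, and that between the mutants was -0.21, with an interval from -0.45 to 0.04. Over the 21 alternative fits, the difference between the mutants ranged from -0.29 to -0.07.

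*Ccnd3*, which encodes cyclin D3, was at 17.2, 19.0 and 19.1 CPM in controls and at 17.2, 19.2 and 19.5 CPM in *Fzd3* mutants. It was at 14.9, 16.8 and 20.6 CPM in *Celsr3* mutants. All 3 genotypes overlapped. The log2 difference from controls was 0.01 in *Fzd3* mutants (interval -0.22 to 0.25) and -0.09 in *Celsr3* mutants (interval -0.32 to 0.14), so a change of the size seen for *Ccnd1* in *Fzd3* mutants is outside both intervals.

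Ratios within a library do not depend on the scaling between libraries. The ratio of *Ccnd2* to *Ccnd1* CPM was 6.73, 6.69 and 5.06 for controls, 7.58, 9.11 and 9.29 for *Fzd3* mutants and 4.97, 6.94 and 6.81 for *Celsr3* mutants. The ratio of *Ccnd2* to *Ccnd3* was 14.8, 15.3 and 12.5 in controls and 10.7, 10.1 and 11.5 in *Fzd3* mutants. Each *Fzd3* mutant library thus had more *Ccnd2* relative to *Ccnd1*, and less relative to *Ccnd3*, than each control. Both differences reached p = 0.1 in exact permutation tests, the smallest p that 3 libraries against 3 allow, and 0.188 after adjustment over 15 tests. Neither passed the threshold.

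CDK4 and CDK6 are the catalytic partners of the D cyclins. *Cdk4* (chromosome 10 of GRCm38, 127063534 to 127067920, plus strand) was at 433, 473 and 435 CPM in controls and at 343, 350 and 360 CPM in *Fzd3* mutants. It was at 446, 462 and 453 CPM in *Celsr3* mutants. The *Fzd3* mutant libraries were below all others, and the *Celsr3* mutants lay within the control range. The log2 difference was -0.35 in *Fzd3* mutants (SE 0.0425, limma adjusted p = 0.000208) and 0.02 in *Celsr3* mutants (interval -0.07 to 0.11). Between the mutants it was -0.37 (SE 0.0425, limma adjusted p = 0.000193).

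*Cdk6* (chromosome 5, 3341485 to 3531008, plus strand) was at 9.94, 14.8 and 8.48 CPM in controls. It was at 5.09, 5.57 and 6.74 CPM in *Fzd3* mutants and at 9.90, 10.8 and 11.9 CPM in *Celsr3* mutants. The controls were the most scattered group, with control 2 well above the others, and the *Fzd3* mutants lay below every other library. The log2 difference was -0.85 in *Fzd3* mutants (SE 0.175, limma adjusted p = 0.00437) and 0.01 in *Celsr3* mutants, where the interval from -0.38 to 0.39 is the widest of the 10 genes. Between the mutants it was -0.85 (SE 0.175, limma adjusted p = 0.0044). The call against controls was lost in 1 of 21 alternative fits, an ordinary per-gene test (adjusted p = 0.156, range 0.00148 to 0.156). The ratio of *Cdk6* to *Cdk4* was 0.023, 0.0313 and 0.0195 in controls and 0.0148, 0.0159 and 0.0187 in *Fzd3* mutants, without overlap (exact permutation p = 0.1, adjusted 0.188).

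The INK4 inhibitors p18 and p19 are encoded by *Cdkn2c* and *Cdkn2d*. *Cdkn2c* (chromosome 4, 109660876 to 109667189, minus strand) was at 10.2, 11.1 and 10.7 CPM in controls and at 7.13, 6.44 and 7.08 CPM in *Fzd3* mutants. It was at 10.5, 11.7 and 13.2 CPM in *Celsr3* mutants. All *Fzd3* mutant libraries were below all others, so that an inhibitor was lower together with the kinases it binds. The log2 difference was -0.60 in *Fzd3* mutants (SE 0.097, limma adjusted p = 0.00114) and 0.13 in *Celsr3* mutants (interval -0.08 to 0.35). Between the mutants it was -0.73 (SE 0.097, limma adjusted p = 0.000398).

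*Cdkn2d* was at 16.2, 17.9 and 17.1 CPM in controls, at 17.6, 15.4 and 13.2 CPM in *Fzd3* mutants and at 18.1, 18.5 and 16.6 CPM in *Celsr3* mutants. *Fzd3* mutant replicate 1 was inside the control range and the others below it. The log2 difference was -0.15 in *Fzd3* mutants (interval -0.37 to 0.07) and 0.05 in *Celsr3* mutants (interval -0.17 to 0.27). The ratio of *Cdkn2c* to *Cdkn2d* was 0.63, 0.617 and 0.629 in controls, and lower in *Fzd3* mutants, at 0.404, 0.417 and 0.536 (exact permutation p = 0.1, adjusted 0.188).

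Promoter sequences from RefSeq (GRCm38.p6, 250 bases before to 50 after the start) were given for 6 of the 10 genes, *Cdk4*, *Cdk6*, *Cdkn1b*, *Cdkn2c*, *Cdkn2d* and *Ccnd3*, and not for *Ccnd1*, *Ccnd2*, *Cdkn1c* and *Rb1*. Those of *Cdk4*, *Cdk6* and *Cdkn2c* are shown because these genes were lower together in *Fzd3* mutants, at chr10:127063285-127063584 (plus strand), chr5:3343643-3343942 (plus strand) and, for the starts of *Cdkn2c*, chr4:109666707-109667006 and chr4:109665323-109665622 (both minus strand). Capitals mark matches on either strand to any of the searched motifs, namely E2F (TTTCGCGC, TTTGGCGC and TTTCCCGC), TCF/LEF (CTTTGAT and CTTTGTT), RBPJ (GTGGGAA), the E-box (CACGTG) and the CCAAT box (CCAAT).
Cdk4: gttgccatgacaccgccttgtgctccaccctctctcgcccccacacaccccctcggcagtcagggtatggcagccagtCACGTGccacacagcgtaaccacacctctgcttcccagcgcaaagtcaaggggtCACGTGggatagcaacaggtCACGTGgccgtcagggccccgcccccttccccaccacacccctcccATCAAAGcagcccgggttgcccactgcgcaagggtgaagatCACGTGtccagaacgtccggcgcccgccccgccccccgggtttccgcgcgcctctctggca
Cdk6: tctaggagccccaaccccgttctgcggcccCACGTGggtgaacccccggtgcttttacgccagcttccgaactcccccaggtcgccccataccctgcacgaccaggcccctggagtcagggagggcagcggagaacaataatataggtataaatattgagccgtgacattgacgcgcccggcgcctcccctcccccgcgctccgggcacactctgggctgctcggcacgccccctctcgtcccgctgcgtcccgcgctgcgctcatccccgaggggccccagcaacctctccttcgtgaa
Cdkn2c, first window: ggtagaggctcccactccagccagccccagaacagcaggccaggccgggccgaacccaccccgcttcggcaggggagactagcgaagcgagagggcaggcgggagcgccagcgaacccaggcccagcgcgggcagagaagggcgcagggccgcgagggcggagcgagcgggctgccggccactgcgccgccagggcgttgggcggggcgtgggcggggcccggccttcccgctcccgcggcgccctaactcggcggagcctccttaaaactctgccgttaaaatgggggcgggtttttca
Cdkn2c, second window: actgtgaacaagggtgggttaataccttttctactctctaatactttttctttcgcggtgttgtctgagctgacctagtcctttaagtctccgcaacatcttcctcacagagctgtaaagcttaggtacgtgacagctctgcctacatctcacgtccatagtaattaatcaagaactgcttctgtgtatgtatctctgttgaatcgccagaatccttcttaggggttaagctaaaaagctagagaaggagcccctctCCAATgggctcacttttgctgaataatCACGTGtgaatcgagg
The *Cdk4* window holds 4 E-box matches, and 8 of 32851 promoter windows (0.0244%) hold as many. It also holds a TCF/LEF match, read as ATCAAAG, and 9.33% of windows hold a match to either TCF/LEF motif. The *Cdk6* window and the second *Cdkn2c* window hold 1 E-box match each, as 7.15% of windows do. The second *Cdkn2c* window also holds a CCAAT box, as 37.4% of windows do, and the first has no match. Of the windows not shown, that of *Cdkn1b* holds 3 CCAAT boxes, and 3.37% of windows hold as many. The *Cdkn2d* window and 1 of the *Ccnd3* windows hold 1 CCAAT box each, and none of these genes has an E-box match. No match to the E2F motifs, held by 1.84% of windows, or to the RBPJ motif, held by 6.38%, is in the windows of the 6 genes. A match describes letters in a window and no binding was measured.

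*Cdkn1b* and *Cdkn1c* encode the Cip/Kip inhibitors p27 and p57. *Cdkn1b* was at 159, 159 and 140 CPM in controls, at 138, 147 and 143 CPM in *Fzd3* mutants and at 150, 174 and 173 CPM in *Celsr3* mutants. Each mutant overlapped the controls, but the mutants did not overlap each other. The log2 difference from controls was -0.10 in *Fzd3* mutants (interval -0.25 to 0.04) and 0.12 in *Celsr3* mutants (interval -0.03 to 0.26). Between the mutants it was -0.22 (SE 0.0662, limma adjusted p = 0.0303). That result failed to pass in 8 of 21 other fits (range of adjusted p 0.0072 to 0.184). It was lost without *Celsr3* mutant replicate 2 (0.111) or 4 (0.105), and without *Fzd3* mutant replicate 1 (0.105), 2 (0.0514) or 3 (0.0548).

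*Cdkn1c*, an imprinted gene expressed from the maternal allele, was at 51.0, 49.7 and 49.1 CPM in controls, at 47.1, 49.2 and 39.7 CPM in *Fzd3* mutants and at 51.4, 50.4 and 52.6 CPM in *Celsr3* mutants. *Fzd3* mutant replicate 3 was the lowest library and replicate 2 reached the control range. The log2 difference from controls was -0.14 in *Fzd3* mutants (interval -0.30 to 0.01) and 0.04 in *Celsr3* mutants (interval -0.11 to 0.20). Without *Fzd3* mutant replicate 3, the difference of *Fzd3* mutants from controls was -0.05 (range over the alternatives -0.2 to -0.05). Between the mutants it was -0.19 (limma adjusted p = 0.0677), and it passed without *Fzd3* mutant replicate 2 (adjusted p = 0.033, range over the alternatives 0.033 to 0.338). The ratio of *Cdkn1b* to *Cdkn1c* overlapped in all 3 genotypes, from 2.85 to 3.2 in controls, 2.92 to 3.6 in *Fzd3* mutants and 2.92 to 3.45 in *Celsr3* mutants.

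*Rb1* encodes the retinoblastoma protein, the substrate of the G1 kinases. Its main row was at 155, 149 and 144 CPM in controls, at 140, 133 and 144 CPM in *Fzd3* mutants and at 139, 145 and 156 CPM in *Celsr3* mutants, with all genotypes overlapping. The log2 difference was -0.10 in *Fzd3* mutants (interval -0.21 to 0.01) and -0.03 in *Celsr3* mutants (interval -0.14 to 0.09). The other row, XLOC_010533, was at 2.46 to 3.74 CPM over all libraries and passed the threshold in no comparison. What part of the gene it covers is not given, and the 10 genes are counted with the main row. *Rb1* and *Fzd3* are on chromosome 14, 7.92 Mb apart, so alleles linked to the mutated gene and the mutation itself cannot be told apart there.

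**Figure D2:**
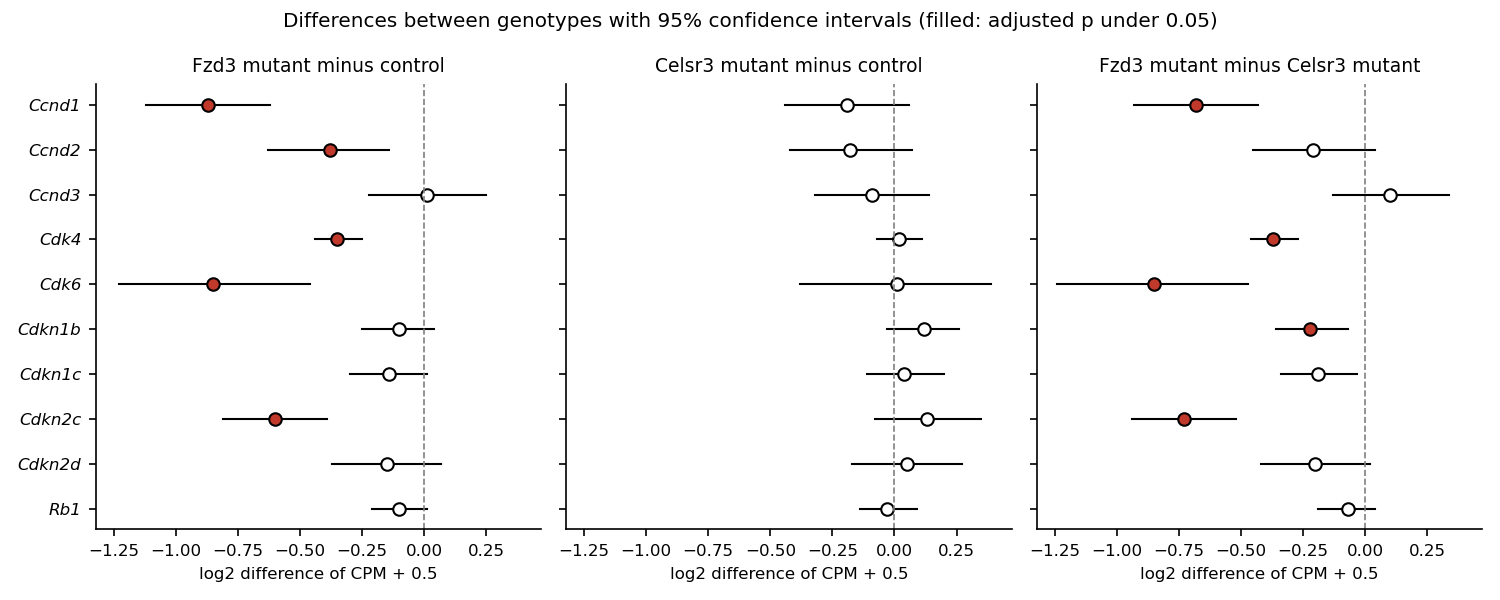
Log2 differences between genotypes for the 10 genes, with 95% confidence intervals from limma on log2(CPM + 0.5) and filled points where the adjusted p is under 0.05. The filled points number 5 for *Fzd3* mutants against controls, 0 for *Celsr3* mutants against controls and 5 between the mutants, and all of them lie below 0.

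Levels of different genes were compared as CPM per kb of annotated exons. In controls, *Cdk4* was highest at 138 ± 6.88 CPM per kb (SD, n = 3) and *Cdk6* lowest at 0.791 ± 0.236. *Cdkn1b* was at 33.6 ± 2.42, *Ccnd2* at 27.8 ± 2.89, *Rb1* at 24.8 ± 0.904 and *Cdkn1c* at 24.5 ± 0.466 CPM per kb. The libraries of each of these 4 genes overlapped those of its neighbour in the order. Below them came *Cdkn2d* at 10.8 ± 0.549, *Ccnd1* at 9.09 ± 0.960, *Cdkn2c* at 3.97 ± 0.161 and *Ccnd3* at 2.1 ± 0.119 CPM per kb, without overlap between neighbours. In *Fzd3* mutants *Ccnd2* was at 21.3 ± 2.19 CPM per kb and ranked 5, after *Rb1* and *Cdkn1c*, whose libraries it overlapped. With the longest transcript as the length, *Ccnd2* ranked 2 in all 3 genotypes, before *Cdkn1b*, so its rank depends on the length used. The order was not tested.

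Of the D cyclin total per kb, *Ccnd2* made up 71.2% ± 3.20 for controls, 75.1% ± 1.60 for *Fzd3* mutants and 71.1% ± 3.05 for *Celsr3* mutants (SD, n = 3). *Ccnd1* made up 23.4% ± 2.85, 17.4% ± 1.63 and 23.2% ± 3.47 in the same order, and *Ccnd3* 5.40% ± 0.362, 7.50% ± 0.425 and 5.72% ± 0.449. *Ccnd2* was thus the main D cyclin mRNA in each genotype on this scale.

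**Figure D3:**
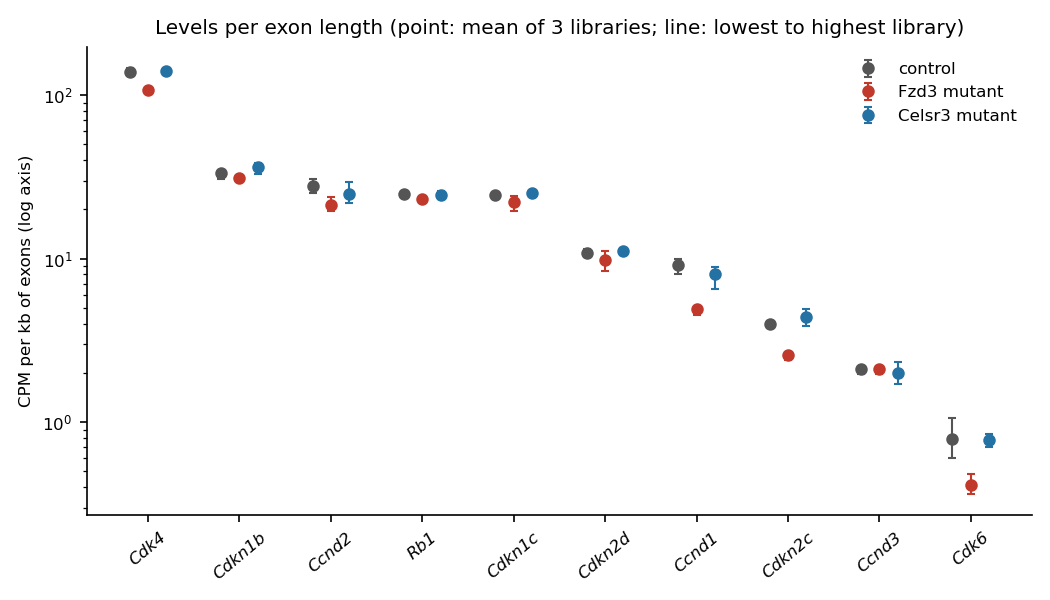
CPM per kb of exons on a log axis, as the mean of 3 libraries with a line from the lowest to the highest library, for the 10 genes in the order of their control levels. *Cdk4* is the highest and *Cdk6* the lowest gene in all 3 genotypes.

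Other genes of the pathway were described from lists, whose counts in *Fzd3* mutants against controls are to be read beside the 14.8% of all rows that were lower and the 15% that were higher. In the list of E2F factors, their DP partners and the pocket proteins related to *Rb1*, 11 of 12 genes were lower and 0 higher in *Fzd3* mutants, with a median log2 difference of -0.39. The largest differences were those of *E2f8* (-0.86, 13.8 CPM in controls and 7.37 in *Fzd3* mutants), *E2f2* (-0.74, 3.66 and 1.96 CPM), *E2f7* (-0.62, 15 and 9.59 CPM) and *Rbl1* (-0.55, 27.8 and 18.9 CPM). *E2f7* and *E2f8* are repressors and *E2f2* an activator of E2F targets, and *Rbl1* encodes the pocket protein p107. The gene that did not pass was *Rbl2*, which encodes p130, the pocket protein of resting cells, at 0.14 (limma adjusted p = 0.207).

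The cyclin E and CDK2 step follows that of the D cyclins. Of its 7 listed genes, 3 were lower and 0 higher in *Fzd3* mutants. They were *Cdk2* (log2 difference -0.75, 21.1 and 12.3 CPM), *Ccne1* (-0.53, 6.77 and 4.57 CPM) and the phosphatase gene *Cdc25a* (-0.25, 36.3 and 30.4 CPM). The median was -0.25. Of the 7 genes of the DREAM and MuvB complexes, which silence cell cycle genes in resting cells or activate them with partners, 4 were lower and 0 higher, with a median of -0.21. These were the activators *Mybl2* (-0.74) and *Foxm1* (-0.56) and the subunits *Lin54* (-0.32) and *Rbbp4* (-0.21).

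Among 13 genes for the turnover of G1 regulators, 6 were lower and 1 higher, with a median of -0.08. *Cdc20*, an activator of the anaphase-promoting complex, differed most (-1.04, 40.9 and 19.7 CPM). *Skp2* and *Cks1b*, whose products target p27 for degradation, were at -0.44 and -0.37, and *Ddb1* at -0.23. *Fbxw7*, whose product targets cyclin E and Myc, was higher (0.31, 82.9 and 103 CPM). Among 16 genes upstream of the D cyclins and p27, 6 were lower and 1 higher, with a median of -0.14. *Myc* was higher (1.15, 13.1 and 29.5 CPM), whereas the antiproliferative genes *Btg2* (-0.76, 30.4 and 17.8 CPM), *Tob1* (-0.35) and *Tob2* (-0.31) and the forkhead factor gene *Foxo4* (-0.62) were lower.

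*Cdkn1a*, which encodes p21, was at 3.34 CPM for controls, 3.80 for *Fzd3* mutants and 2.84 for *Celsr3* mutants. It passed the threshold only between the mutants (log2 difference 0.36, limma adjusted p = 0.0408). *Cdkn2a* and *Cdkn2b* were listed too but have no row under these symbols, so they were not analysed. In *Celsr3* mutants, none of the genes in these lists passed the threshold against controls. Between the mutants, *Fzd3* mutants were lower in 10 of 12 genes of the E2F list, 3 of 7 of the cyclin E list, 4 of 7 of the DREAM list, 3 of 13 of the turnover list and 7 of 16 of the upstream list, and higher in 2 of the turnover list and 2 of the upstream list. Of all rows, 14.3% were lower and 15.3% higher in that comparison, so the higher counts are close to the share of the table and 3 of 13 is not far above it.

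**Figure D4:**
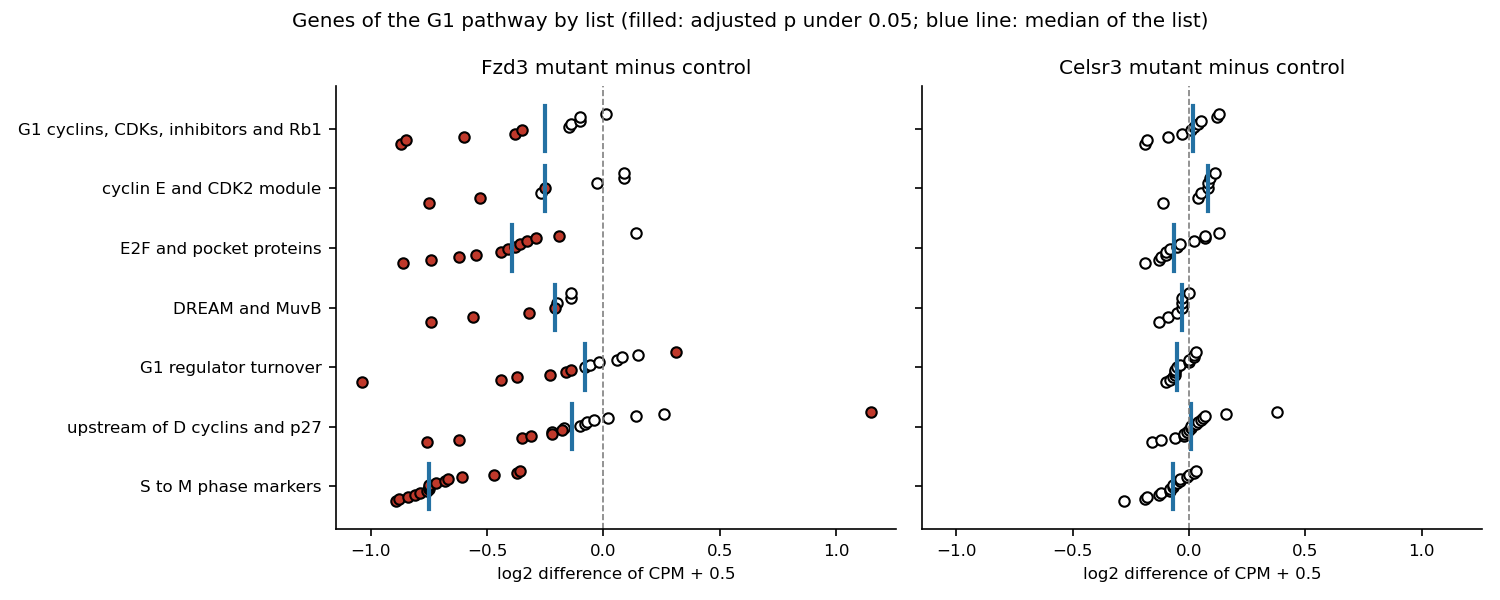
Log2 differences from controls on the scale of log2(CPM + 0.5), 1 point per gene, by list, in *Fzd3* mutants and in *Celsr3* mutants, with filled points where the limma adjusted p is under 0.05 and a line at the median of each list. In *Fzd3* mutants the median of the E2F list is -0.39 and that of the S to M phase list -0.75, and in *Celsr3* mutants no point is filled.

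Markers of cycling cells moved with these genes. All 16 genes of the S to M phase list were lower in *Fzd3* mutants, against 14.8% of all rows. The median log2 difference of the list was -0.75, with *Ccnb1* (-0.89), *Mcm3* (-0.88), *Aurkb* (-0.84) and *Mki67* (-0.81) the furthest from 0. Their summed level was 1484, 1566 and 1374 CPM for controls, 875.2, 918.9 and 984.1 for *Fzd3* mutants and 1318, 1414 and 1512 for *Celsr3* mutants, and *Top2a* was the most abundant. Only the *Fzd3* mutant libraries lay apart from the others. The part of these markers in the lower levels of the G1 genes was not tested.

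Progenitor markers moved likewise. Of 11 apical progenitor markers, 8 were lower in *Fzd3* mutants (14.8% of all rows) and 0 higher (15% of all rows). Their sum was 1582, 1647 and 1596 CPM for controls, 1238, 1297 and 1176 for *Fzd3* mutants and 1445, 1488 and 1582 for *Celsr3* mutants, with *Fabp7* the most abundant. Of 8 basal progenitor markers, 7 were lower (14.8% of all rows) and 0 higher (15% of all rows). Their sum was 456.5, 491 and 420.3 CPM for controls, 276.1, 299.6 and 330.2 for *Fzd3* mutants and 462.4, 514.1 and 517.5 for *Celsr3* mutants, with *Eomes* the most abundant and *Neurog1* close to 0 in *Fzd3* mutants (0.602 CPM on average). Both sums were lower in each *Fzd3* mutant library than in any control. The apical sums of *Celsr3* mutants also lay at or below the lowest control, but 0 of the 11 apical markers passed the threshold there. The apical markers that did not pass in *Fzd3* mutants were *Fabp7*, *Slc1a3* and *Ddah1*. The part of the apical and basal progenitor markers in the result was not tested.

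Of 11 neuron markers, 4 were lower (14.8% of all rows) and 4 higher (15% of all rows) in *Fzd3* mutants. Their sum was 6843, 6855 and 6628 CPM for controls, 7180, 6947 and 7183 for *Fzd3* mutants and 6998, 6981 and 6646 for *Celsr3* mutants, with *Dcx* the most abundant, so that each *Fzd3* mutant library was above each control by a small margin. Glial precursor markers were higher in 4 of 5 genes, against 15% of all rows, with *Aldh1l1* the most abundant. Their sum was 41.94, 41.97 and 58.94 CPM in controls and 94.72, 89.51 and 59.08 in *Fzd3* mutants. In replicate 3 of the *Fzd3* mutants this sum was close to that of control 3. The glial precursor sum was 56.41, 38.71 and 45.16 CPM in *Celsr3* mutants. Between the mutants, 3 of 5 of these genes were higher in *Fzd3* mutants and 0 lower, against 15.3% and 14.3% of all rows. The part of the neuron and glial precursor markers in the result was not tested.

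Endothelial and mural markers were higher in 3 of 8 genes in *Fzd3* mutants, against 15% of all rows, with *Kdr* the most abundant. Their sum was 144.5, 144.6 and 145.6 CPM in controls and 200.4, 195.5 and 175.3 in *Fzd3* mutants. Microglia markers were higher in 2 of 5 genes, against the same 15% of all rows, with *Csf1r* the most abundant. Their sum was 29.9, 34.62 and 33.28 CPM in controls and 50.77, 48.2 and 35.89 in *Fzd3* mutants. Whether the endothelial and microglia counts exceed the share of all rows was not tested. Interneuron and ganglionic eminence markers were lower in 1 of 9 genes, close to the 14.8% of all rows, and their sum overlapped between controls (242.6, 243.2 and 276.8 CPM) and *Fzd3* mutants (288.4, 266.6 and 225.7 CPM), with *Dlx1* the most abundant. The endothelial and microglia sums were higher in every *Fzd3* mutant library than in any control, and the part of these cells in the result was not tested. In *Celsr3* mutants the endothelial sum was 159.5, 139.9 and 197.9 CPM and the microglia sum 33.52, 35.87 and 42.78 CPM, where replicate 4 reached the levels of *Fzd3* mutants. For microglia, *Fzd3* mutant replicate 3 (35.89 CPM) was only just above control 2 (34.62 CPM). *Celsr3* mutant replicate 2 (35.87 CPM) was at nearly the same microglia level. The interneuron sum of *Celsr3* mutants was 243.9, 208.4 and 193.1 CPM. Between the mutants, 4 of 9 interneuron markers were higher and 1 was lower in *Fzd3* mutants, against 15.3% and 14.3% of all rows.

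Meninges markers set 1 library apart. Their sum was 12.22, 16.18 and 10.53 CPM for controls, 21.04, 19.54 and 14.66 for *Fzd3* mutants and 15.18, 15.31 and 174.8 for *Celsr3* mutants, where replicate 4 was the high one and *Col3a1* the most abundant gene. Without that library, 0 of the 10 genes passed the threshold in *Celsr3* mutants against controls, 5 in *Fzd3* mutants against controls and 4 between the mutants, where *Cdkn1b* no longer passed. Of all 14670 rows, 39, 4279 and 3143 passed in the same order, against 45, 4366 and 4346 with all libraries, so the count between the mutants fell over the whole table as well. Blood markers, led by *Hba-a1*, summed to 1766, 1918 and 2040 CPM for controls, 2286, 2444 and 1570 for *Fzd3* mutants and 2417, 1585 and 2538 for *Celsr3* mutants, and 1 of 7 was lower in *Fzd3* mutants, again close to the share of all rows. The 2 listed markers of thalamus that have a row, *Tcf7l2* and *Lhx9*, summed to between 3.693 and 6.979 CPM in all libraries. Both were lower in *Fzd3* mutants, against 14.8% of all rows. The listed choroid plexus markers have no row under their symbols, so they were not analysed.

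**Figure D5:**
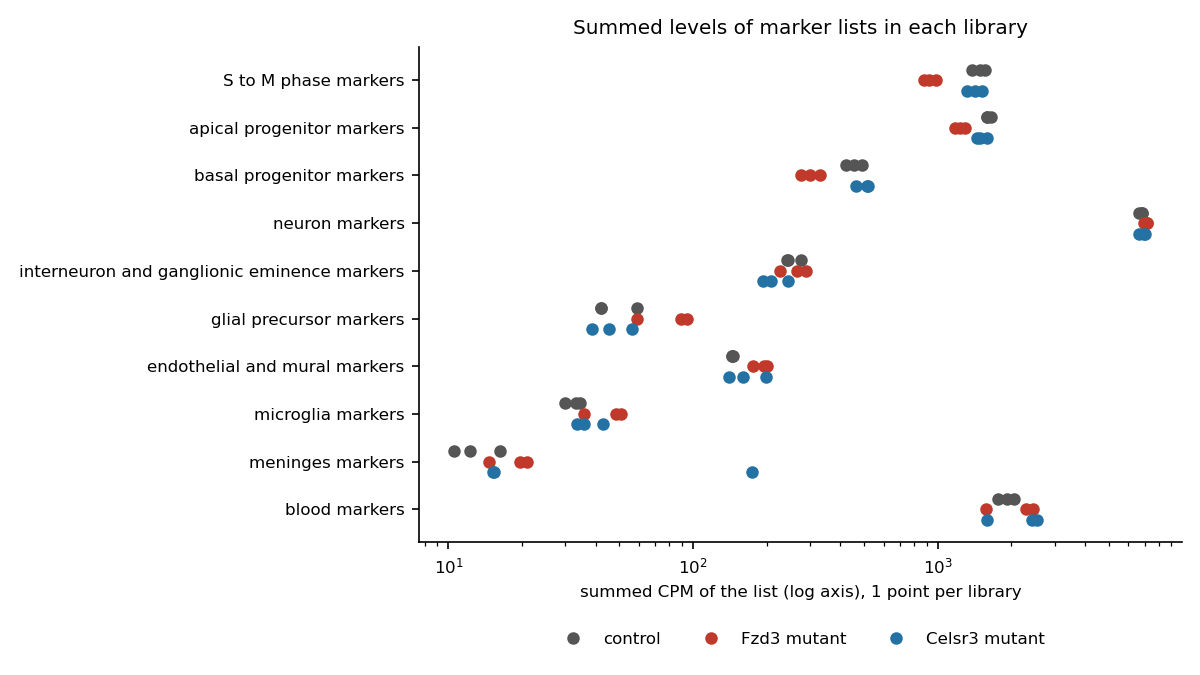
Summed CPM of marker lists on a log axis, 1 point per library. The S to M phase, apical and basal progenitor sums are lower in all 3 *Fzd3* mutant libraries than in all controls, and *Celsr3* mutant replicate 4 stands apart for meninges markers at 174.8 CPM.

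The genes with the most similar profiles over the 9 libraries were found by the root mean square difference of mean-centred log2 values. For *Cdk4* they were *Rcc2* (0.0259), *Mxd1* (0.0268) and *Llgl1* (0.0295). For *Cdkn2c* they were *A930024E05Rik* (0.065), *Cks2* (0.0743) and *E2f7* (0.0769), the last from the E2F list. For *Cdk6* they were *Sox3* (0.0777), *Gli3* (0.0938) and *Megf10* (0.105), and for *Ccnd1* *2610318N02Rik* (0.0987), *Gm12447* (0.117) and *Rnd2* (0.122). *Ccnd2* was closest to *Poll* (0.0688), *Ammecr1* (0.0739) and *Zwilch* (0.0821). None of these 5 genes had another of the 10 among its nearest 3.

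Spans of other annotated genes, introns included, overlap exons of *Ccnd1* (*LTO1*), *Ccnd2* (*9330179D12Rik* and *Gm43126*), *Ccnd3* (*Bysl*) and *Cdk4* (*Tspan31*). The same holds for *Cdk6* (*Gm17590*), *Cdkn1c* (*Gm44732*) and *Rb1* (*Gm17233*, *Lpar6* and *Rcbtb2*). Whether exons of these neighbours overlap as well was not examined. The use of strand in counting is not given in the sources used here, so reads from any shared stretch cannot be told apart.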

How the data were processed

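Cortical RNA of 9 libraries, 3 for each genotype, was sequenced by a company with Illumina protocols, after Trizol extraction according to the labels and an RNeasy kit according to the methods. The authors deposited CPM values per gene with column totals of 990140.6 to 1012198.8, so a further scaling factor per library had been applied, and with no row under a mean of 0.54 CPM. The submitters' processing notes name TopHat, Cufflinks 2.1.1 and edgeR 2.12, and the builds GRCm38 and GRCh37, with no role. In each library 100% of values were whole multiples of 1 step, within a tolerance of 0.1 of a step, from which depth was read. Columns left unused numbered 0.

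The tests came from limma 3.58.1 under R 4.3.3 (functions lmFit, contrasts.fit and eBayes, the last with a mean-variance trend). The scale was log2(CPM + 0.5). Rows with a mean under 0.5 CPM were to be left out, and there were 0. Groups came from sample titles, with no replicate block. The fit was tested on simulated data, where the changes it recovered were only just above the pass mark set when the test was written. Permutation tests, lengths and motif searches used Python 3.11.15, numpy 2.4.6, pandas 2.3.3 and scipy 1.17.1, and figures matplotlib 3.10.9. Positions and lengths are from GENCODE M21, which need not be the authors' annotation.

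Besides the 10 genes and the mutated genes, the rule named from each of 7 pathway lists up to 4 genes past the threshold with the largest change in each direction, or else the most abundant gene, from 10 marker lists the most abundant gene and markers near 0, and the 3 nearest genes by profile. Other genes named were chosen after their values were seen. The members and lists were chosen with earlier results of these data known. Alternatives covered the pseudocount, filter, scaling, samples in the fit, block, variance moderation, each library left out and, chosen after seeing the data, weights by depth and by library.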

Additional observations from a re-analysis of the deposited data

Results flagged for a closer look

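For 5 of the 10 genes, the difference from controls in *Fzd3* mutants and that in *Celsr3* mutants were not alike when the mutants were compared directly in the limma fit, where the shared controls cancel. On the log2 scale, *Fzd3* mutants differed from *Celsr3* mutants by -0.68 for *Ccnd1* (adjusted p = 0.00151), -0.37 for *Cdk4* (adjusted p = 0.000193), -0.85 for *Cdk6* (adjusted p = 0.0044), -0.73 for *Cdkn2c* (adjusted p = 0.000398) and -0.22 for *Cdkn1b* (adjusted p = 0.0303). All 3 *Fzd3* mutant libraries were below all 3 *Celsr3* mutant libraries for each of these genes. Of all rows, 14.3% were lower, 15.3% were higher and 44.9% did not overlap in this comparison, 22.6% with *Fzd3* mutants lower. The result for *Cdkn1b* was lost in 8 of 21 other fits (range of adjusted p 0.0072 to 0.184) and that for *Ccnd1* in 1 of 21 (range 0.000504 to 0.0731). For *Cdkn1b*, neither mutant passed the threshold against controls. *Ccnd2* passed in *Fzd3* mutants against controls, but its difference between the mutants did not (-0.21, adjusted p = 0.194), so its change is not shown to differ between them. That difference ranged from -0.29 to -0.07 over the 21 alternative fits and passed in 0 of them.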

How the results depend on the processing

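The 10 genes were refitted in 21 ways that differ from the limma fit above. A fit without the filter was the same fit, as the filter removed 0 rows, and is not counted. In the 690 values obtained for the 11 rows, 671 kept their side of the threshold, 17 no longer passed, 2 newly passed and 0 changed sign while past it. An ordinary per-gene test without shared variances gave the lowest counts: 1793 genes for *Fzd3* mutants against controls (4366 in the limma fit), 6 for *Celsr3* mutants against controls (45) and 1941 between the mutants (4346), with 3 of the 10 genes (5) in the first and 3 (5) in the last. Leaving out each library in turn gave 2960 to 4314, 39 to 53 and 2973 to 4471 genes, and 4 to 5, 0 and 4 to 5 of the 10. With the replicate number as a block, 3629, 29 and 2101 genes passed, and 5, 0 and 4 of the 10. Same-numbered libraries of different genotypes had a mean correlation of deviations of -0.0358 (7 pairs, -0.199 to 0.192), against 0.0122 for 20 other pairs. These values give no sign that the numbers pair the libraries, but so few scattered pairs cannot exclude it. Number 4 occurs only in *Celsr3* mutants. The block therefore also takes that library out of the comparisons, but leaving it out alone gave 4279, 39 and 3143 genes, more than the block in each comparison, and *Cdkn1b* between the mutants at an adjusted p of 0.105. Under the block, *Cdkn1b* between the mutants was at -0.15 (adjusted p = 0.184, range over the alternatives 0.0072 to 0.184). *Ccnd1* between the mutants was lost in the ordinary test (adjusted p = 0.0731, range 0.000504 to 0.0731), and *Cdkn2d* between the mutants passed without *Fzd3* mutant replicate 1 (0.0462, range 0.0462 to 0.44). The cause was not tested. Of 30 ranks by level, 14 moved with the longest transcript as the length and 23 without division by length. Shifts of the ratios were set against the larger SD of the 2 groups. Leaving out 1 of 3 libraries cannot shift a mean that far, so this check says nothing about their stability. With a pseudocount of 1, 5 of 11 sets of nearest genes stayed whole. The planned count models, which needed recovered reads, were not run, as the reads implied by the CPM steps were not established as the original counts.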
